A study of Mus musculus with 16 samples.

Results

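The diet-by-PMA interaction in mouse ear skin asks whether the response of the skin to PMA differed between mice on a normal diet and mice on a high-fat diet. It was taken from all 16 of the 16 RNA-sequencing libraries of the study, which were grouped by their sample titles into 4 groups of 4 mice. The mice were of the B6 strain. ND_cont were mice on the normal diet (ND) with untreated ears, and HFD_cont were mice on a high-fat diet (HFD) for 8 weeks with untreated ears. ND_PMA and HFD_PMA were mice on the same diets whose ears had received 200 ng of PMA each and were collected 24 h later. The labels count 4 mice in each group, so p-values measure the spread between mice. The sources used here give neither sex nor age, neither the time on the ND nor any vehicle on untreated ears. The interaction is the PMA effect in HFD mice minus the PMA effect in ND mice, on the log2 scale. At 0 the diet effect and the PMA effect multiply, which is the same as adding on the log2 scale. Below 0 the doubly treated skin lies under the level that multiplied effects give, and above 0 it lies over that level.

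PMA is a phorbol ester that stands in for diacylglycerol and switches on protein kinase C. In epidermis this drives AP-1 transcription factors, the release of cytokines, an influx of neutrophils, keratinocyte proliferation and a wound-like programme of keratins, small proline-rich proteins and proteases. A high-fat diet loads skin and circulation with lipid and is known to alter the barrier and the inflammatory tone of skin. Where both inputs act on the same genes, their joint effect can add, fall short of the sum or exceed it.

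Library totals ran from 7739487 to 15571389 counts, and 17604 of the 48440 genes passed the low-count filter. Some libraries stood apart. The summed level of 20 hair shaft and inner root sheath genes, in CPM (counts scaled to an equal library size), was 2914, 2035, 93.1 and 715 in the HFD_cont libraries and 3735, 144, 74.2 and 176 in HFD_PMA, against 15.3 to 67.7 in ND_cont and 12.03 to 172 in ND_PMA. All 4 ND_cont libraries and HFD_cont library 1 carry library IDs of 1 series and the other 11 libraries those of another, so that ND_cont and the ID series cannot be told apart except through HFD_cont library 1, and what the ID prefixes stand for was not known. The summed level of 14 neutrophil genes was 1480, 1014, 494 and 516 CPM in HFD_PMA, 282 to 572 in ND_PMA and 216 to 266 in untreated skin, and it includes Il1r2, which keratinocytes also express. Keratinocyte (Krt5, Krt14, Krt1 and Krt10) and fibroblast (Col1a1, Col1a2 and Dcn) genes were detected in every library, and their sums moved with the groups. In whole skin, fewer cells of a type and less RNA per cell cannot be told apart.

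One gene passed the test of the interaction, Teddm3. It made up 0.00568% of the 17604 genes tested by edgeR's quasi-likelihood test at a Benjamini-Hochberg-adjusted p below 0.05, with 0 genes above 0 and 1 below. The same rule called 12.9% of genes for PMA in ND and 11.9% for PMA in HFD, and 3.93% and 2.2% for diet without and with PMA. At an unadjusted p below 0.05 the interaction held 311 genes above 0 and 504 below, 4.63% of those tested. That split moved with the scaling, to 389 and 423 with RLE size factors and 437 and 466 with DESeq2. DESeq2 called 22 genes, 18 below 0 and 4 above, and limma-voom called 1. In simulated counts the test recovered 18.2% of 2-fold and 59.4% of 4-fold interactions, so that most simulated 2-fold departures went uncalled with 4 libraries a group. The 95% interval lay within -1 and 1, that is within 2-fold of multiplied effects, for 8241 genes (46.8%). Among genes with a mean of at least 5 CPM this share was 66.4%. Estimates were below 0 for 55.1% of genes, with a median of -0.04 and a median SE of 0.37. Genes and gene lists are therefore given by their values and intervals. PMA raised 8.96% of all genes in ND and 7.34% in HFD, and lowered 3.99% and 4.6%. Differences between the counts of list members in the 2 diets were not tested. A gene given by its mean ± SD or by its interaction and interval alone lies outside the naming rule and was chosen with its values known. Of 719 distinct list members tested, 0 were called by the edgeR fit above or by limma-voom. DESeq2 called 6, against 22 of all 17604 genes: Klk6, Klk5, Klk8, Ccl24, Ccl6 and Ccl3. Some other edgeR settings called Klk6, as given below.

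**Figure D1:**
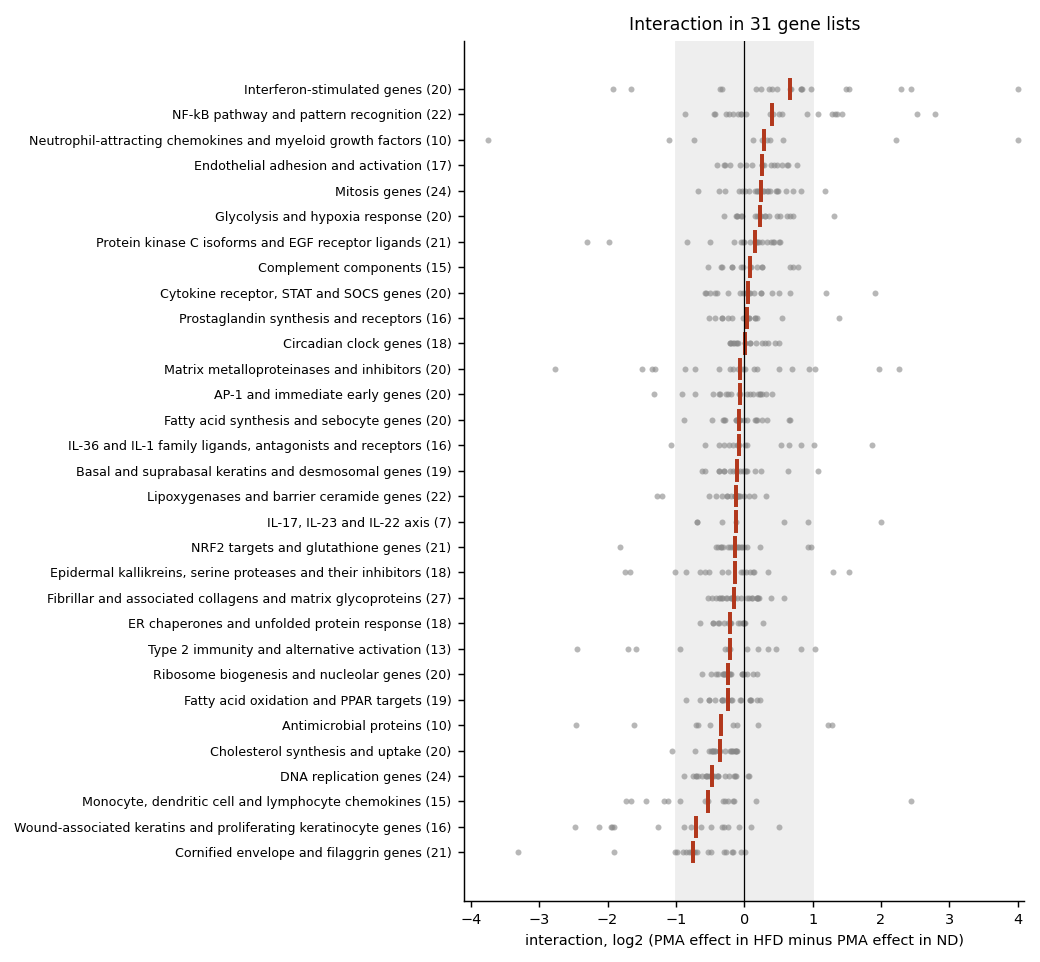
The interaction (x axis, log2) of every tested member (grey points) of 31 gene lists (y axis, members tested in brackets), with the list median as a red bar and the range from -1 to 1 shaded. Medians ran from -0.75 in cornified envelope genes to 0.68 in interferon-stimulated genes, and Ccl3 and Ifi44, above 4, are drawn at the edge.

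Teddm3 belongs to the transmembrane epididymal protein family and lies at chr16:21152655-21154000 on the minus strand of GRCm38, as a single exon that shares no bases with another annotated exon. Its nearest annotated neighbours were the model Gm18771 at 30132 bases and the receptor gene Ephb3 at 50755 bases. The level was 7.9, 8.99, 6.44 and 10.1 CPM in the ND_cont libraries, 75.4, 58, 48.2 and 49.2 in HFD_cont, 84.7, 91, 97.7 and 91.7 in ND_PMA and 137, 191, 156 and 138 in HFD_PMA. The 4 groups did not overlap, and every HFD_PMA library lay above every library of the other groups. PMA raised Teddm3 by 3.45 ± 0.18 (log2 fold change ± SE) in ND and by 1.43 ± 0.16 in HFD skin, and HFD raised it by 2.79 ± 0.18 without PMA and by 0.77 ± 0.16 with PMA. Multiplied effects gave an expected 617 CPM against 154 CPM observed in HFD_PMA (geometric means). The interaction was -2.02 ± 0.23 (SE, 95% interval -2.50 to -1.53), with an adjusted p of 0.000538 by edgeR. In CPM the effects nearly added, with a difference of differences of 14.8 ± 14.5 CPM (SE). Leaving out any 1 library gave -2.12 to -1.83 and kept the call. Without the 4 libraries of high hair gene level, which leaves HFD_cont library 3 alone in its group, the interaction was -1.68 and the call was lost (adjusted p = 0.364 by edgeR).

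**Figure D2:**
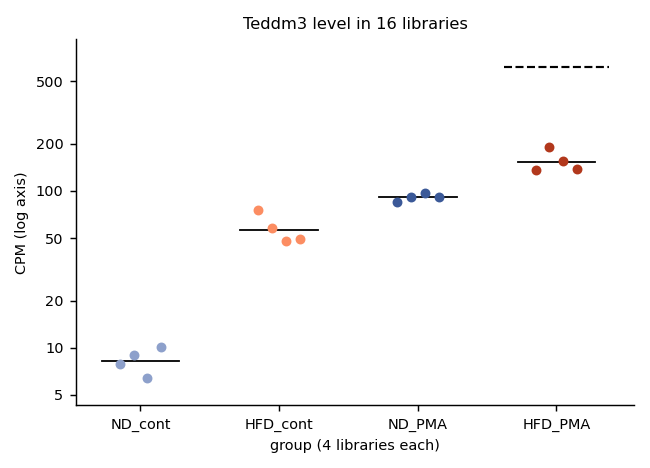
Teddm3 in CPM (log y axis) in each of the 16 libraries by group (x axis). Solid lines are geometric means of 4 libraries and the dashed line is the HFD_PMA level that multiplied diet and PMA effects give, 617 CPM, which lies above all 4 HFD_PMA libraries.

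The Teddm3 promoter is shown because no other gene passed the test. The sequence covers 250 bases before to 50 after the start of transcription (chr16:21153895-21154194, minus strand), from RefSeq on GRCm38.p6, 5′ to 3′.
Teddm3: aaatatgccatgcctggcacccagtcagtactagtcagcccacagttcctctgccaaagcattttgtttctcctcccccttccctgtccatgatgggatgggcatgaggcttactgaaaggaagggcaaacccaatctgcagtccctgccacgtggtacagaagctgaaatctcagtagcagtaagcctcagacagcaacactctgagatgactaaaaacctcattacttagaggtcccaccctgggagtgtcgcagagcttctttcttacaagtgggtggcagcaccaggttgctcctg
It was searched for TGAGTCA on both strands, the consensus to which AP-1, the factor downstream of PMA, is known to bind. No other motif was searched. The letters are not in this window. They occur in 5.20% of the 32851 windows of that length in the table.

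Wound-associated keratinocyte genes, which are switched on when epidermis is injured or proliferates, were raised by PMA and by diet, and in most of them the doubly treated skin lay under the level of multiplied effects. PMA raised 15 of 16 members in ND and 14 of 16 in HFD, where 8.96% and 7.34% of all genes rose, and HFD raised 12 of 16 without PMA, where 2.87% of all genes rose. The interaction was below 0 for 14 of 16, where 55.1% of all genes were below 0, with a median of -0.71. At an unadjusted p of 0.05, 7 passed below 0, against 2.86% of all genes. Sprr1b, a cornified envelope precursor, was at 9.75, 5.3, 6.63 and 12.8 CPM in the ND_cont libraries, 101, 50.6, 32.5 and 73.2 in HFD_cont, 166, 152, 120.4 and 138 in ND_PMA and 269, 377, 145 and 194 in HFD_PMA. Every HFD_cont library lay above ND_cont, and HFD_PMA overlapped ND_PMA through library 3. The expected level was 1019.5 CPM against 231 CPM observed, and the interaction was -2.13 ± 0.47 (SE, 95% interval -3.12 to -1.14).

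Its neighbour Sprr1a stood at 63.1, 113, 83.9 and 72.4 CPM in the ND_cont libraries, 344, 193, 158 and 219.7 in HFD_cont, 348, 357, 355 and 298 in ND_PMA and 504, 410.2, 254 and 396 in HFD_PMA. HFD_cont library 1 lay inside the ND_PMA range and HFD_PMA library 3 below it, and the interaction was -1.26 ± 0.31 (SE, 95% interval -1.90 to -0.61). Sprr2h, of the same family, had 1.25 ± 0.429 CPM in ND_cont, 12.5 ± 8.22 in HFD_cont, 39.5 ± 10.2 in ND_PMA and 103 ± 41.4 in HFD_PMA (mean ± SD, n = 4), and an interaction of -1.95 ± 0.56 (SE, 95% interval -3.11 to -0.79). The stress keratin Krt16, which marks activated keratinocytes, rose far more, from 39.8 CPM in ND_cont to 2332 in ND_PMA and from 236 in HFD_cont to 3609 in HFD_PMA, with an interaction of -1.93 (-3.70 to -0.17). The keratins Krt17, at -0.63 (-1.18 to -0.08), Krt6a, at -0.48 (-2.11 to 1.14), and Krt6b, at -0.78 (-4.23 to 2.66), had estimates nearer 0. The intervals of Krt6a and Krt6b span 0.

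On the CPM scale most of the wound genes had the other sign. Of the 14 members below 0 on the log2 scale, 12 had a PMA rise that was larger in CPM in HFD than in ND skin. For Sprr1b that difference of differences was 46.4 ± 53.5 CPM (SE) and for Sprr2h 51.8 ± 21.7 CPM (SE), while Sprr1a was at -94.3 ± 67.8 CPM (SE). The log2 median of the list also moved with the libraries used. It was -1.50 with the library ID series as a covariate, -0.20 without the 4 libraries of high hair gene level, and -1.14 to -0.41 over the libraries left out 1 at a time, lowest without ND_cont library 4 and nearest 0 without HFD_cont library 1. Sprr1b was at -1.17 without the 4 libraries. Summed levels of 4 keratinocyte genes were 11570 to 15925 CPM in ND_cont, 18521 to 22761 in HFD_cont, 19103 to 22444 in ND_PMA and 24553 to 27669 in HFD_PMA, and their part in the wound, kallikrein and cornified envelope genes was not tested. Reads of Sprr, Krt6 and Stfa genes can be split between near-identical copies.

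The promoters of Sprr1a and Sprr2h are shown because these list members rose with PMA and hold the AP-1 letters, in capitals. The windows of Sprr1b (1) and Klk6 (2), which lead their lists, do not hold these letters. The printed ones are RefSeq windows on GRCm38.p6 of 250 bases before to 50 after the start, 5′ to 3′, at chr3:92485832-92486131 (minus strand) and chr3:92385435-92385734 (plus strand).
Sprr1a: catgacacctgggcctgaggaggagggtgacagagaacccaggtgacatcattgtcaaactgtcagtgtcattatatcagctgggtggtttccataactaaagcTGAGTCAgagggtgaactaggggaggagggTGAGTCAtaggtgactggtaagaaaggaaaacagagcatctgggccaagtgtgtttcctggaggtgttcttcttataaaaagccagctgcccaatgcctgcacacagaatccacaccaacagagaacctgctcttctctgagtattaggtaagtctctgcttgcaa
Sprr2h: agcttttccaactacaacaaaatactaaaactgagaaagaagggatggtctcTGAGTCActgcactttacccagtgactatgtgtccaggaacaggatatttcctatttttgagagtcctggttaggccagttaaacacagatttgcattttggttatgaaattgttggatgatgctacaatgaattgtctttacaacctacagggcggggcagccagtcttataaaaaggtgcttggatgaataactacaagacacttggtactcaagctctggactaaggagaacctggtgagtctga
Sprr1a holds TGAGTCA at 2 places, -146 and -116 from the start, and Sprr2h at 1, -198. Of 11 wound-associated members with a window, 4 held the letters on either strand (36.4%), which were Sprr1a, Sprr2d, Sprr2h and Stfa3. Among all 27025 genes with a window 5.95% did. Shares in the other lists ran from 0%, as in DNA replication genes, to 38.5% in matrix metalloproteinases and inhibitors (5 of 13). NRF2 targets were at 29.4%, so the letters are not particular to the wound genes. A match is a description of these letters and not a measured binding site.

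Epidermal kallikreins are secreted serine proteases that cut the junctions between corneocytes and activate one another. PMA raised 10 of 18 members of the list of kallikreins, other proteases and inhibitors in ND and 10 in HFD, where 8.96% and 7.34% of all genes rose, and HFD raised 9 without PMA, where 2.87% did. The list's median interaction was -0.14, with -0.33 to -0.10 over libraries left out, lowest without ND_cont library 1. Of its members, 7 passed an unadjusted p of 0.05 below 0 and 1 above, where 2.86% and 1.77% of all genes did. Intervals lay within 2-fold of multiplied effects for 11 members (61.1%), against 66.4% of genes with a mean of at least 5 CPM. Klk6 came closest to the threshold (adjusted p = 0.0667 by edgeR). Its levels were 7.28, 17.6, 9.04 and 10.4 CPM in the ND_cont libraries, 75, 69.8, 55.1 and 64.8 in HFD_cont, 200.5, 231, 202 and 185 in ND_PMA and 379.8, 489.6, 277 and 301 in HFD_PMA. All 4 groups were separate, with HFD_PMA highest, and the expected level was 1260.4 CPM against 353 CPM observed. The interaction was -1.74 ± 0.29 (SE, 95% interval -2.35 to -1.13), and it was called by DESeq2, with no or a stricter low-count filter, with the replicate block, and without ND_cont library 2 or HFD_PMA library 2. In CPM the difference went the other way, at 102 ± 49.1 CPM (SE).

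Klk5, which starts the kallikrein cascade, had a different shape. It was at 164, 201, 157 and 128 CPM in the ND_cont libraries, 324, 341, 346 and 312 in HFD_cont, 260.3, 225, 275 and 276 in ND_PMA and 231, 283, 337 and 313 in HFD_PMA. Every HFD_cont library lay above every ND_PMA library, and HFD_PMA overlapped HFD_cont. PMA raised it by 0.67 ± 0.13 in ND, whereas the value in HFD was -0.19 ± 0.13, and the interaction was -0.86 ± 0.19 (SE, 95% interval -1.25 to -0.47). Klk8, a protease of the granular layer, stood at 47.4, 48.1, 50.3 and 47.4 CPM in the ND_cont libraries, 137, 112, 135 and 112 in HFD_cont, 87.8, 89.9, 99.1 and 101 in ND_PMA and 151, 162, 153 and 151 in HFD_PMA, with an interaction of -0.65 ± 0.15 (SE, 95% interval -0.96 to -0.34), within 2-fold of multiplied effects. Its groups did not overlap, in the order ND_cont, ND_PMA, HFD_cont and HFD_PMA from low to high. Klk8 shares exon bases with a gene on the other strand, and no strand setting of the counting is given. Klk13, at -1.67 (-2.67 to -0.67), and Klk7, at -0.52 (-0.85 to -0.19), were also below 0. Klk10 was at 0.02 (-0.56 to 0.61) and the inhibitor Spink5 at 0.13 (-0.38 to 0.63), both near 0.

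**Figure D3:**
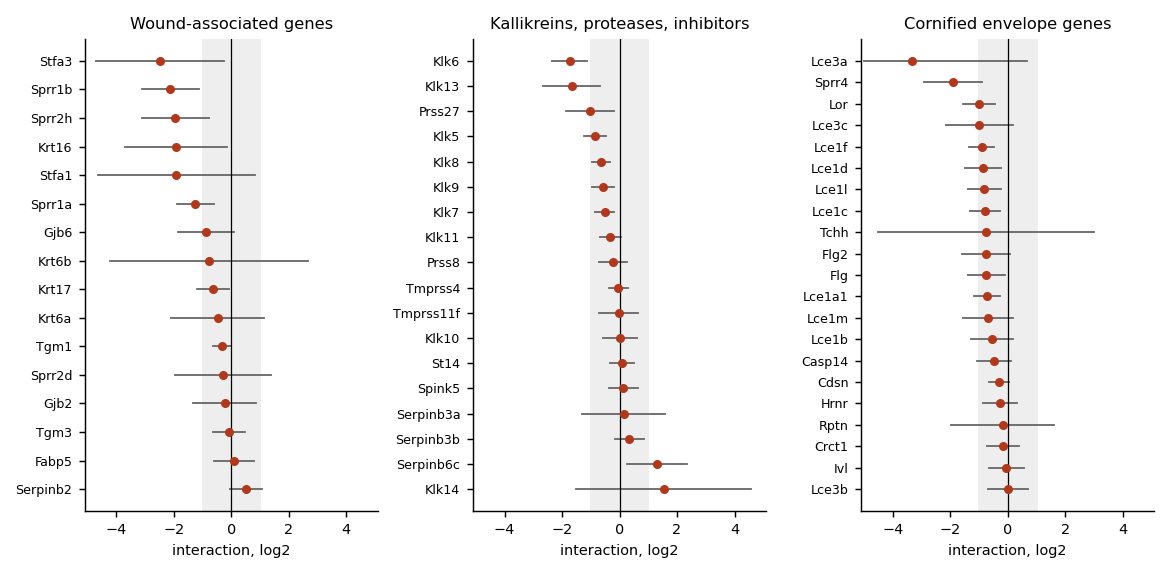
Interaction (x axis, log2) with its 95% interval for each tested member (y axis) of the wound-associated, kallikrein and cornified envelope lists, with the range from -1 to 1 shaded. Estimates lay below 0 for 14 of 16, 11 of 18 and 20 of 21 members, against 55.1% of all genes. The interval of Lce3a is cut at -5.

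Cornified envelope genes, which build the protein shell of the dead outer cells, had interactions below 0 in nearly all members. HFD raised 10 of 21 members without PMA and 2 of 21 with PMA, where 2.87% and 0.943% of all genes rose. PMA lowered 11 of 21 in HFD skin and 1 of 21 in ND skin, where 4.6% and 3.99% of all genes fell. It raised 3 and 4, where 7.34% and 8.96% of all genes rose. The differences between these counts were not tested. The interaction was below 0 for 20 of 21 members, where 55.1% of all genes were below 0. Its median was -0.75, with a range of -0.81 to -0.49 over libraries left out. Of the members below 0, 8 passed an unadjusted p of 0.05, where 2.86% of all genes did. Lce1f, a late cornified envelope protein, was at 122, 136, 108 and 108 CPM in the ND_cont libraries, 345, 273, 265 and 239 in HFD_cont, 129, 112, 130.2 and 121 in ND_PMA and 161, 108, 166 and 188 in HFD_PMA. HFD_cont stood above all other libraries, and HFD_PMA returned towards the ND level. PMA changed it by -0.85 ± 0.15 in HFD against 0.05 ± 0.15 in ND, and the interaction was -0.90 ± 0.21 (SE, 95% interval -1.34 to -0.47).

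Lor encodes loricrin, the main envelope protein. It had 543 ± 125 CPM in ND_cont, 1127 ± 72.1 in HFD_cont, 528 ± 111 in ND_PMA and 543 ± 143 in HFD_PMA (SD, n = 4), with an interaction of -1.01 ± 0.27 (SE, 95% interval -1.57 to -0.46). PMA lowered it by 1.05 ± 0.19 (log2 ± SE) in HFD skin, against a value of -0.04 ± 0.19 in ND skin. Flg encodes filaggrin, which bundles keratin filaments. It had 155 ± 23.5 CPM in ND_cont, 679 ± 185 in HFD_cont, 133 ± 33.3 in ND_PMA and 348 ± 109 in HFD_PMA and an interaction of -0.75 (-1.39 to -0.10), from the ID with most counts among the several that carry its symbol. Sprr4 was at 1.73, 4.35, 2.79 and 2.58 CPM in the ND_cont libraries, 15.9, 11.8, 7.19 and 12.4 in HFD_cont, 5.72, 5.6, 5.13 and 4.32 in ND_PMA and 5.39, 3.66, 4.93 and 8.9 in HFD_PMA, with an interaction of -1.90 ± 0.48 (SE, 95% interval -2.91 to -0.89). Involucrin (Ivl), at -0.05 (-0.66 to 0.55), and Lce3b, at 0.01 (-0.67 to 0.70), were near 0. In CPM the interaction was also negative, at -568 ± 116 CPM (SE) for Lor and -129 ± 29.5 CPM (SE) for Lce1f. Of the 20 members below 0 on the log2 scale, 4 were above 0 in CPM. The list's median was -1.06 with the library ID series as a covariate and -0.66 without the 4 libraries of high hair gene level, where Sprr4 was at -1.13.

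Cytokines of the IL-1 and IL-36 family, which keratinocytes release to alert the immune system, spread to both sides of 0. Of 16 members 9 were below 0, near the 55.1% of all genes, and the median was -0.08. Il1f6, which encodes IL-36 alpha, was at 11, 7.85, 4.71 and 5.5 CPM in the ND_cont libraries, 52, 39.8, 31.7 and 26 in HFD_cont, 28.3, 27.5, 23.3 and 30.7 in ND_PMA and 72.7, 52.5, 69.4 and 74.6 in HFD_PMA. HFD_PMA was highest in every library, at 66.8 CPM against an expected 141 CPM. The interaction was -1.08 ± 0.33 (SE, 95% interval -1.77 to -0.38), while the difference in CPM was 9.69 ± 7.86 CPM (SE). Il1f9 (IL-36 gamma), at -0.09 (-0.46 to 0.28), and Il1f5 (the IL-36 receptor antagonist), at -0.10 (-0.44 to 0.24), lay within 2-fold of multiplied effects. On the other side stood Il1rn, the IL-1 receptor antagonist, at 0.54 (0.11 to 0.97), the alarmin Il33, at 0.83 (0.17 to 1.48), and Il1rap, the shared receptor subunit, at 0.66 (0.09 to 1.23). Il18rap, a subunit of the IL-18 receptor, was at 5.18, 2.46, 0.769 and 3.14 CPM in the ND_cont libraries, 1.48, 0.85, 2.25 and 2.28 in HFD_cont, 6.47, 5.73, 4.05 and 3.91 in ND_PMA and 15.4, 12.3, 10.6 and 5.77 in HFD_PMA, with an interaction of 1.87 ± 0.65 (SE, 95% interval 0.51 to 3.23). These levels are low, and in HFD_PMA the highest values were in libraries 1 and 2, which also had the highest neutrophil gene sums. Their part in the result was not tested.

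Chemokines for monocytes, dendritic cells and lymphocytes were raised by PMA in 9 of 15 members in ND and 5 of 15 in HFD, counts whose difference was not tested. Of all genes, 8.96% and 7.34% rose. Interactions lay below 0 for 13 of 15, where 55.1% of all genes were below 0, with a median of -0.53. At an unadjusted p of 0.05, 5 members passed, all below 0, where 2.86% of all genes did. Ccl6, a monocyte and macrophage attractant, was at 28.1, 25.8, 25 and 21.9 CPM in the ND_cont libraries, 32, 37.9, 25.7 and 28.1 in HFD_cont, 151, 139, 117 and 86.3 in ND_PMA and 64, 76.2, 80.2 and 57.9 in HFD_PMA. The HFD_PMA libraries all lay below the ND_PMA libraries, and the diet effect with PMA was -0.83 ± 0.17 (adjusted p = 0.0141 by edgeR). The interaction was -1.12 ± 0.24 (SE, 95% interval -1.63 to -0.61). Ccl22, made by dendritic cells, was at 2.59, 5.58, 4.04 and 5.27 CPM in the ND_cont libraries, 5.31, 5.33, 7.63 and 4.13 in HFD_cont, 31.9, 24.1, 41.3 and 28.2 in ND_PMA and 18.4, 11.8, 15.58 and 25.7 in HFD_PMA, with an interaction of -1.17 ± 0.40 (SE, 95% interval -2.02 to -0.33). Of its HFD_PMA libraries, library 4 reached into the ND_PMA range and the other 3 lay below it. Ccl9, at -0.94 (-1.68 to -0.20), and Ccl2, at -1.45 (-2.54 to -0.35), were below 0 as well. Summed monocyte and macrophage marker levels of 21 genes were 1307 to 1934 CPM in ND_PMA and 992 to 1618 in HFD_PMA, with untreated skin at 889 to 1184, and their part in these values was not tested. The list's median was -0.42 with the library ID series as a covariate and -0.71 to -0.21 over libraries left out.

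Among genes of type 2 immunity 7 of 13 interactions were below 0, near the 55.1% of all genes. At an unadjusted p of 0.05, 3 members passed below 0 and 2 above, where 2.86% and 1.77% of all genes did. The list's median was -0.20. That median turned to 0.02 without ND_PMA library 2 and to 0.18 without the 4 libraries of high hair gene level, and was -0.38 without ND_cont library 4. Ccl24, which attracts eosinophils, was at 2.72, 3.78, 3.94 and 2.92 CPM in the ND_cont libraries, 4.32, 3.48, 6.25 and 2.61 in HFD_cont, 14.9, 17.3, 10.04 and 6.89 in ND_PMA and 2.31, 3.5, 2.58 and 2.76 in HFD_PMA. PMA raised it in ND by 1.87 ± 0.35 and its value in HFD was -0.58 ± 0.35, and the HFD_PMA libraries overlapped the untreated ones. The interaction was -2.46 ± 0.49 (SE, 95% interval -3.49 to -1.42). Tslp, a keratinocyte cytokine that primes type 2 responses, was at 6.79, 4.35, 2.6 and 3.93 CPM in the ND_cont libraries, 2.47, 3.86, 6.54 and 7.93 in HFD_cont, 32.8, 21.5, 27.2 and 32.7 in ND_PMA and 7.99, 12.6, 5.56 and 15.9 in HFD_PMA, with every HFD_PMA library below every ND_PMA library and an interaction of -1.70 ± 0.52 (SE, 95% interval -2.78 to -0.61). With the library ID series as a covariate the Tslp value was -0.62 and that of Ccl24 -2.50. Chil1, a chitinase-like protein that PMA raised in both diets, stood at 74.2 ± 19.3 CPM in ND_cont, 223 ± 77 in HFD_cont, 785 ± 178 in ND_PMA and 1941 ± 510.3 in HFD_PMA, with -0.28 (-1.004 to 0.44).

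Genes of the NF-kB pathway and pattern recognition were mixed in sign, with 13 of 22 interactions above 0 and 9 below. Over all genes 55.1% were below 0. PMA raised 4 of 22 members in ND and 11 of 22 in HFD, where 8.96% and 7.34% of all genes rose. The difference between these counts was not tested. The interaction had a median of 0.40, and 6 members passed an unadjusted p of 0.05 above 0 with 0 below. Of all genes, 1.77% did above 0. Tnfaip3, which encodes the NF-kB inhibitor A20, was at 30.1, 25, 29.5 and 21.2 CPM in the ND_cont libraries, 20.3, 27, 14.6 and 18.6 in HFD_cont, 28.5, 28.9, 20.01 and 15.3 in ND_PMA and 36.2, 30.5, 34.9 and 31.7 in HFD_PMA. Every HFD_PMA library lay above all other libraries, and the interaction was 0.92 ± 0.31 (SE, 95% interval 0.27 to 1.56). Clec4d, a myeloid lectin receptor found on neutrophils, was at 1.36, 0.189, 0 and 0.898 CPM in the ND_cont libraries, 1.48, 0.232, 0.145 and 0.543 in HFD_cont, 4.23, 7.4, 2.17 and 2.88 in ND_PMA and 35.7, 52.8, 13.5 and 7.77 in HFD_PMA, with an interaction of 2.80 ± 1.13 (SE, 95% interval 0.43 to 5.16). HFD_PMA libraries 1 and 2 were highest, as in the neutrophil sums, and the untreated values rest on few counts. Its interaction was 1.36 with the library ID series as a covariate and 4.49 without the 4 libraries of high hair gene level. Clec7a, the beta-glucan receptor, was at 1.33 (0.05 to 2.61), and Tlr2, a receptor for bacterial lipoproteins, at 1.08 (0.03 to 2.13). The median of the list was 0.26 to 0.50 over libraries left out and 0.47 with the library ID series as a covariate.

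Neutrophil markers had a median interaction of 0.76, which ranged from -0.03 to 1.47 over libraries left out and was -0.01 with the library ID series as a covariate. Its lowest value came without ND_cont library 4 and its highest without HFD_cont library 1. S100a8 and S100a9, the subunits of calprotectin in neutrophils and stressed keratinocytes, had intervals of -1.73 to 4.31 and -1.68 to 4.11, which allow a shortfall as well as an excess. S100a8 averaged 2.8 ± 3.6 CPM in ND_cont, 8.75 ± 9.17 in HFD_cont, 48.2 ± 43.3 in ND_PMA and 363 ± 278 in HFD_PMA (SD, n = 4). Ccl3, an attractant of neutrophils and monocytes, was at 1.48, 0.378, 0.192 and 0.449 CPM in the ND_cont libraries, 0.741, 0, 0 and 0.109 in HFD_cont, 0.332, 1.8, 0.433 and 0.617 in ND_PMA and 18.5, 19.95, 9.55 and 2.88 in HFD_PMA, near 0 counts in HFD_cont, so no fold is given. The receptor Cxcr2 was at 4.07, 5.77, 9.71 and 5.84 CPM in the ND_cont libraries, 22.5, 18.9, 16.6 and 16.8 in HFD_cont, 39.98, 37.4, 33.2 and 29.7 in ND_PMA and 47.8, 65.7, 52.1 and 25.1 in HFD_PMA, and its interaction of -1.10 ± 0.37 (SE, 95% interval -1.87 to -0.34) had the sign opposite to most markers. Keratinocytes are also known to express Cxcr2. Interferon-stimulated genes had a median of 0.68, with 16 of 20 members above 0, where 55.1% of all genes were below 0. At an unadjusted p of 0.05, 2 passed above 0, where 1.77% of all genes did. Intervals lay within 2-fold of multiplied effects for 0 members, against 46.8% of all genes. Their median half-width was 1.87, against 0.77 over all genes, and a half-width above 1 cannot lie within 2-fold. Only 15 of the 20 members had a mean of at least 1 CPM. Ifit3 was at 19.3, 13.2, 10.6 and 12.1 CPM in the ND_cont libraries, 11.4, 7.65, 12.1 and 7.17 in HFD_cont, 7.88, 9.91, 12.1 and 6.17 in ND_PMA and 19.4, 13, 9.47 and 7.77 in HFD_PMA, and its groups overlapped. Its interaction of 0.98 was 0.37 without the 4 libraries of high hair gene level.

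Glycolysis and hypoxia genes rose with PMA in 9 of 20 members in ND and 13 of 20 in HFD, where 8.96% and 7.34% of all genes rose. The difference between these counts was not tested. The list's median interaction was 0.23. At an unadjusted p of 0.05, 4 members passed above 0 and 0 below, where 1.77% and 2.86% of all genes did. Of the intervals, 13 lay within 2-fold of multiplied effects, a share near the 66.4% of genes with a mean of at least 5 CPM. Pfkl, a phosphofructokinase subunit, was at 101, 83.1, 124 and 114 CPM in the ND_cont libraries, 119.9, 101, 108 and 96.9 in HFD_cont, 124, 253, 154 and 196 in ND_PMA and 328, 383, 271 and 215 in HFD_PMA. The 2 untreated groups overlapped, and 3 of 4 HFD_PMA libraries were above every ND_PMA library. The expected level was 178 CPM against 293 CPM observed, with an interaction of 0.71 ± 0.27 (SE, 95% interval 0.14 to 1.28). Slc16a3, a lactate exporter, was at 36.8, 31.1, 62.9 and 51.2 CPM in the ND_cont libraries, 37.2, 31.8, 34.9 and 24.5 in HFD_cont, 37.9, 85.6, 23.5 and 46.8 in ND_PMA and 99.6, 133, 60.0 and 47 in HFD_PMA, with 1.31 ± 0.49 (SE, 95% interval 0.30 to 2.33). The central enzymes Ldha, at -0.03 (-0.42 to 0.36), and Pkm, at 0.16 (-0.28 to 0.60), were within 2-fold of multiplied effects. The value of Slc16a3 without ND_PMA library 2, its highest in that group, was 1.78. Its HFD_PMA libraries 3 and 4 lay within the ND_PMA and ND_cont ranges. For Pfkl and Slc16a3, HFD_PMA libraries 1 and 2 were highest, and within ND_PMA library 2 was, as in the neutrophil gene sums. The part of neutrophils in these values was not tested.

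**Figure D4:**
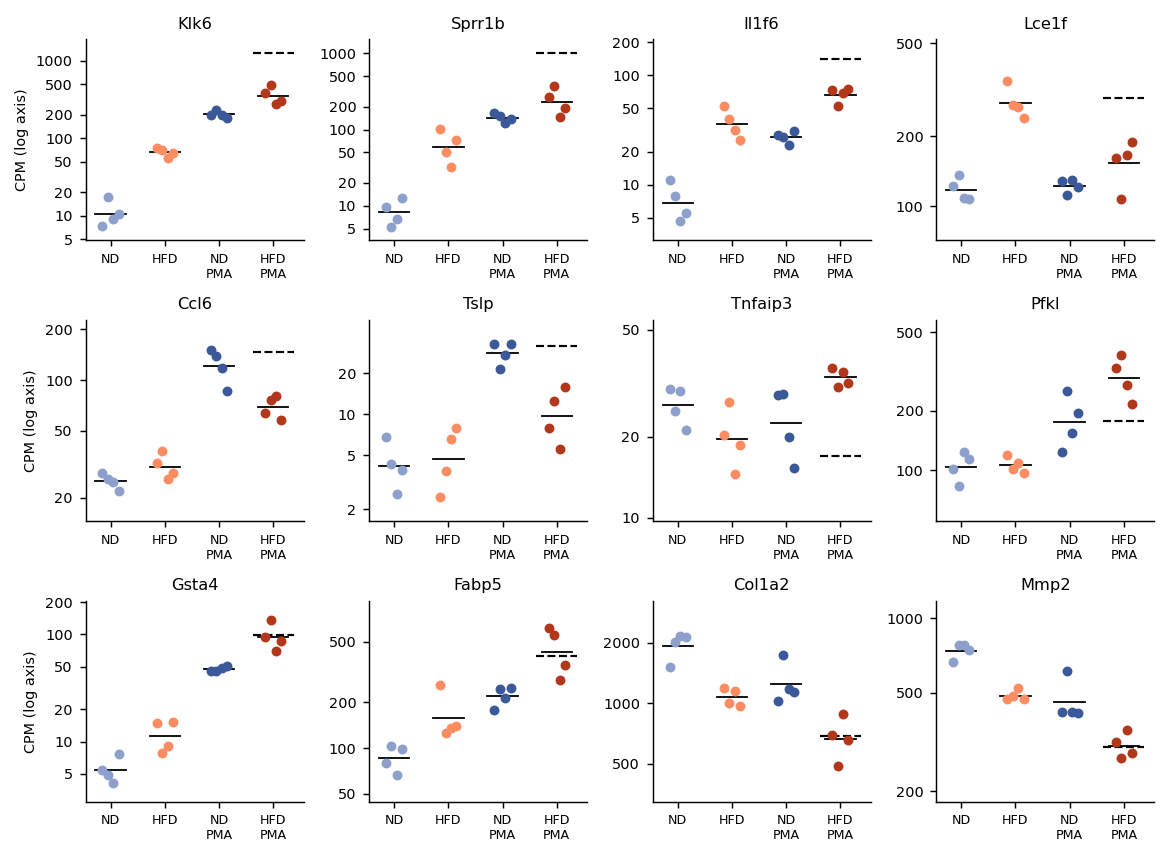
CPM (log y axes) of 12 genes in each library by group (x axes), with geometric means as solid lines and the HFD_PMA level given by multiplied effects as a dashed line. HFD_PMA libraries lie under the dashed line for Klk6, Sprr1b, Il1f6, Lce1f, Ccl6 and Tslp, over it for Tnfaip3 and Pfkl, and around it for Gsta4, Fabp5, Col1a2 and Mmp2.

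Genes of DNA replication and of mitosis were both raised by PMA, and their median interactions had opposite signs. PMA raised 24 of 24 replication genes in ND and 17 of 24 in HFD, where 8.96% and 7.34% of all genes rose. The difference between these counts was not tested. The list's median interaction was -0.47, with 22 members below 0, where 55.1% of all genes were below 0. At an unadjusted p of 0.05, 5 members passed, all below 0, where 2.86% of all genes did. Mcm5, a subunit of the replicative helicase, was at 49.6, 27.5, 49.3 and 27.7 CPM in the ND_cont libraries, 80.6, 81.8, 46.3 and 38.2 in HFD_cont, 129, 179, 175 and 165 in ND_PMA and 154, 164, 132 and 114 in HFD_PMA. HFD_PMA overlapped ND_PMA although HFD_cont reached higher than ND_cont, and the interaction was -0.88 ± 0.33 (SE, 95% interval -1.57 to -0.19). The helicase subunit Mcm3 was at 22.2, 44.6, 44.5 and 58.5 CPM in the ND_cont libraries, 79.4, 51.5, 57.5 and 50.9 in HFD_cont, 149.9, 169.5, 176 and 174 in ND_PMA and 161, 128, 159.7 and 129 in HFD_PMA, with -0.71 ± 0.29 (SE, 95% interval -1.30 to -0.11). Rrm2, which supplies deoxynucleotides, was at -0.29 (-0.81 to 0.24), and the sliding clamp Pcna at -0.12 (-0.64 to 0.40). PMA raised 22 of 24 mitosis genes in ND and 23 of 24 in HFD. Their median interaction was +0.25, with 5 members below 0. At an unadjusted p of 0.05, 2 passed, both above 0, where 1.77% of all genes did. Cenpa, the centromeric histone, was at 14.9, 13.6, 20.5 and 21.5 CPM in the ND_cont libraries, 26.2, 26.4, 16.7 and 19.1 in HFD_cont, 32.9, 29.5, 21.8 and 30.2 in ND_PMA and 68.4, 93.5, 56.5 and 35.5 in HFD_PMA. All 4 HFD_PMA libraries lay above every other library, library 4 by the least, and the interaction was 0.83 ± 0.35 (SE, 95% interval 0.10 to 1.56). Cenpf, a kinetochore protein, was at 16.5, 22.4, 5.86 and 20.9 CPM in the ND_cont libraries, 14.5, 20.5, 13.3 and 20.2 in HFD_cont, 24.1, 8.81, 27.1 and 34.6 in ND_PMA and 68.8, 73.6, 39.3 and 41 in HFD_PMA, with 1.18 ± 0.52 (SE, 95% interval 0.09 to 2.27). The cyclin-dependent kinase Cdk1, at 0.23 (-0.60 to 1.06), and Mki67, a proliferation marker, at 0.33 (-0.56 to 1.22), had intervals that span 0.

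The difference between both lists was not itself tested. The replication median was -0.54 to -0.31 over libraries left out, -0.81 with the library ID series as a covariate and -0.47 without the 4 libraries of high hair gene level. The mitosis median turned to -0.16 with the series covariate, was 0.07 to 0.46 over libraries left out, lowest without HFD_PMA library 2, and was 0.49 without the 4 libraries. Mcm5 was at -0.49 without the 4 libraries, and Mcm3 at -1.12 with the series covariate.

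**Figure D5:**
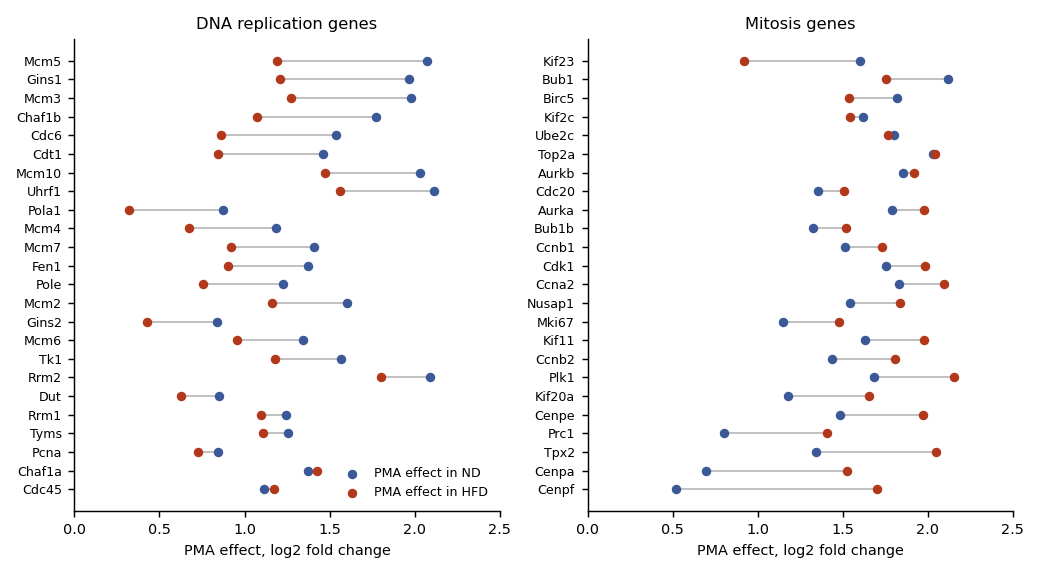
PMA effect (x axis, log2 fold change) in ND (blue) and HFD skin (red) for 24 DNA replication and 24 mitosis genes (y axes). The HFD effect was the smaller for 22 replication genes and the larger for 19 mitosis genes. It was the smaller for 55.1% of all genes.

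Cholesterol synthesis and uptake genes had interactions below 0 in 20 of 20 members, where 55.1% of all genes were below 0, with a median of -0.36. Of the intervals, 16 lay within 2-fold of multiplied effects (80%), against 66.4% of genes with a mean of at least 5 CPM. Of the 20 members, 4 passed an unadjusted p of 0.05 below 0, where 2.86% of all genes did. PMA raised 2 of 20 in ND, near the 8.96% of all genes, and lowered 3 of 20 in HFD, where 4.6% of all genes fell. The median was -0.41 to -0.22 over libraries left out. Of fatty acid oxidation genes, 14 of 19 were below 0, and Acadl, an acyl-CoA dehydrogenase, was at 59.6, 75.2, 71.1 and 61.9 CPM in the ND_cont libraries, 83.2, 131, 99.3 and 118 in HFD_cont, 98, 96.7, 118 and 110.5 in ND_PMA and 97.1, 112, 113 and 114 in HFD_PMA, with -0.64 ± 0.19 (SE, 95% interval -1.04 to -0.24). HFD raised Acadl by 0.69 ± 0.14 without PMA, and with PMA the value was 0.04 ± 0.13 with overlapping groups. The interaction of Acadl was -0.27 with the library ID series as a covariate, and the median of the oxidation list, -0.25, turned to 0.01 without the 4 libraries of high hair gene level.

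Some genes that responded to both inputs had estimates near multiplied effects. Of 62 list members with a mean of at least 5 CPM for which PMA in ND and diet without PMA were both called in 1 direction, 27 had an interaction interval within -1 and 1 (43.5%), 21 with higher and 6 with lower levels, and 35 did not. Among all genes with a mean of at least 5 CPM 66.4% did, so the share is not above the background. Gsta4, a glutathione transferase for lipid peroxidation products, was at 5.43, 4.92, 4.13 and 7.63 CPM in the ND_cont libraries, 14.8, 7.88, 9.15 and 15.4 in HFD_cont, 45.9, 45.2, 48.5 and 50.6 in ND_PMA and 95.1, 137, 70.4 and 87 in HFD_PMA. The expected level was 98.6 CPM against 94.7 CPM observed, with -0.05 ± 0.32 (SE, 95% interval -0.73 to 0.62). Fabp5, the epidermal fatty acid carrier, was at 80.0, 103, 66.5 and 98.8 CPM in the ND_cont libraries, 261, 126, 135 and 141 in HFD_cont, 178, 245, 213 and 250.1 in ND_PMA and 618, 552, 281 and 352 in HFD_PMA, with 0.10 ± 0.34 (SE, 95% interval -0.61 to 0.80) and an expected 405 CPM against 429 CPM observed. HFD_cont library 1 was far above the other 3, and with the library ID series as a covariate the value was -0.56. Signs of values this near 0 turned with the settings, and Gsta4 was at -0.39 with that covariate and 0.34 without the 4 libraries of high hair gene level. Krt1, the keratin of differentiating layers, was at 477, 434, 821 and 657 CPM in the ND_cont libraries, 2439, 3094, 1823 and 1481 in HFD_cont, 921, 964, 1024 and 1269.6 in ND_PMA and 3545, 3066, 2835 and 2535 in HFD_PMA, with -0.37 ± 0.29 (SE, 95% interval -0.97 to 0.24). Both effects were drawn from a shared ND_cont group, so that the choice of these genes is a description.

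Among genes that both inputs lowered, Col1a2, a chain of type I collagen, was at 1513, 2025, 2159.7 and 2148 CPM in the ND_cont libraries, 1187, 1009, 1154 and 967 in HFD_cont, 1023, 1741, 1184 and 1141 in ND_PMA and 693, 484, 887 and 656 in HFD_PMA. The expected level was 689.9 CPM against 665 CPM observed, and the interaction was -0.04 ± 0.25 (SE, 95% interval -0.55 to 0.47). Mmp2, a gelatinase of fibroblasts, was at 664, 782, 779 and 744 CPM in the ND_cont libraries, 472, 484, 521 and 472 in HFD_cont, 419, 610.4, 418 and 415 in ND_PMA and 318, 273, 354 and 287 in HFD_PMA, with an expected 302 CPM against 307 CPM observed and 0.01 ± 0.18 (SE, 95% interval -0.36 to 0.38). Elovl5, a fatty acid elongase, was at 228, 322, 228 and 272 CPM in the ND_cont libraries, 132, 134, 161 and 119 in HFD_cont, 103, 98.3, 135 and 131 in ND_PMA and 76.6, 74.3, 69.2 and 87.3 in HFD_PMA, with 0.33 ± 0.20 (SE, 95% interval -0.08 to 0.75). Of 27 collagens and matrix glycoproteins, HFD lowered 12 without PMA and 10 with PMA, where 1.06% and 1.26% of all genes fell. Of their intervals, 23 lay within 2-fold of multiplied effects (85.2%), against 66.4% of genes with a mean of at least 5 CPM. In this list 0 members passed an unadjusted p of 0.05, where 4.63% of all genes did. Summed fibroblast markers were 6764 to 8422 CPM in ND_cont, 4307 to 5001 in HFD_cont, 4455 to 6006 in ND_PMA and 2712 to 4292 in HFD_PMA, and their part in the matrix genes was not tested. Clock genes, which keep circadian time, had a median of 0.01. Of their 18 intervals 16 lay within 2-fold (88.9%), against 66.4% of genes with a mean of at least 5 CPM. PMA lowered 8 of the clock genes in ND and 7 in HFD, where 3.99% and 4.6% of all genes fell.

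Protein kinase C, the direct target of PMA, and early response genes were also examined at 24 h. In the list of 21 protein kinase C isoforms and EGF receptor ligands, 9 intervals lay within 2-fold of multiplied effects (42.9%). Among all genes with a mean of at least 5 CPM the share was 66.4%. In this list 1 gene passed an unadjusted p of 0.05, a share near the 4.63% of all genes. That was Epgn, an EGF receptor ligand, at 0.494, 0.568, 0.288 and 1.12 CPM in the ND_cont libraries, 2.84, 7.65, 4.5 and 5.76 in HFD_cont, 6.47, 22.2, 10.5 and 13.1 in ND_PMA and 36.7, 33.7, 16.9 and 24.4 in HFD_PMA, with -1.98 ± 0.60 (SE, 95% interval -3.23 to -0.73). It rose with PMA in both diets and with HFD, and HFD_PMA held the highest values, although library 3 was within the ND_PMA range. With the library ID series as a covariate its value was -1.11. Prkcd, a kinase of differentiating keratinocytes, was at -0.01 (-0.29 to 0.27), Prkch, of the same layers, at -0.05 (-0.47 to 0.37), and Egfr at 0.21 (-0.15 to 0.57). Among 20 AP-1 and immediate early genes the median was -0.07 and 13 intervals lay within 2-fold, a share near that of all genes with a mean of at least 5 CPM (66.4%). Fos was at 33.1, 4.82, 21.4 and 15.4 CPM in the ND_cont libraries, 22.9, 55.7, 70.2 and 28.9 in HFD_cont, 39.98, 36.3, 15.4 and 13.7 in ND_PMA and 31.7, 24.8, 23.6 and 20.8 in HFD_PMA, with widely spread values within groups and -1.33 ± 0.65 (SE, 95% interval -2.70 to 0.05). With the series covariate Fos was at -0.36. Junb, an AP-1 subunit that PMA raised in both diets, was at -0.24 (-0.65 to 0.16).

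Of 10 antimicrobial proteins, PMA raised 5 in each diet and HFD raised 4 without PMA. No interval lay within 2-fold of multiplied effects, against 46.8% of all genes. The median half-width of the list's intervals was 1.65, against 0.77 over all genes, and a half-width above 1 cannot lie within 2-fold. Of all genes, PMA raised 8.96% in ND and 7.34% in HFD, and HFD raised 2.87% without PMA. Slpi, a protease inhibitor of wounded epithelium, was at 1.23, 2.36, 0.769 and 1.91 CPM in the ND_cont libraries, 16.6, 5.02, 6.68 and 6.41 in HFD_cont, 41.3, 66.4, 59.5 and 63.5 in ND_PMA and 164, 111, 64 and 66.2 in HFD_PMA, with -1.61 ± 0.54 (SE, 95% interval -2.74 to -0.48). Without HFD_cont library 1, its highest untreated value, the interaction was -1.08, and with the library ID series as a covariate -2.57. In CPM the difference was 36.5 ± 24.4 CPM (SE). Lcn2, which binds bacterial iron carriers, had 0.913 ± 0.39 CPM in ND_cont, 3.61 ± 1.26 in HFD_cont, 18.1 ± 7.82 in ND_PMA and 64.4 ± 18.8 in HFD_PMA, with an interaction of -0.11 (-1.07 to 0.85). S100a7a was near 0 counts in ND_cont, at 0, 0.189, 0 and 0.337 CPM, and at 13.6, 13.7, 0.508 and 4.13 in HFD_cont, 4.4, 2.96, 2.82 and 4.11 in ND_PMA and 46.6, 60.8, 12.8 and 23.4 in HFD_PMA, so no fold is given.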

How the data were processed

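The authors deposited 1 table of raw read counts per gene for 16 ear skin libraries, all of which matched a sample. Per the labels, libraries were made by SMART-Seq2, a full-length method that marks neither strand nor molecules. Per the submitters' processing notes STAR 2.3, featureCounts 1.5 and GRCm38 (mm10) were used, and their settings are not stated there. Replicates differed beyond sampling noise (chi-square per degree of freedom at least 10.02), so each counted as 1 sample.

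Groups followed the sample titles. Genes were filtered with filterByExpr (minimum count 10, minimum total 15), and edgeR 4.0.16 (R 4.3.3) fitted 4 group means after TMM scaling and applied its quasi-likelihood test, with Benjamini-Hochberg adjustment over 17604 genes and a threshold of 0.05. The SE is the absolute log2 effect over the root of F, intervals are 95%, and printed folds are edgeR log2 values at its default prior count. The expected levels, and the observed levels set against them, come from log2 CPM with a prior count of 2. CPM differences are differences of group means. DESeq2 1.42.0, limma 3.58.1 (voom), RLE and upper-quartile scaling, other filters, no mitochondrial genes, a replicate block, the library ID series as a covariate and each library left out were alternatives. The steps on hair gene level were added after seeing the data.

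Members and the 42 gene lists were chosen with earlier results of these data known. The text names, per list, the 2 genes with the smallest p, called genes, and up to 8 genes a direction whose effects multiply. The test was checked on simulated counts, where 4.04% of calls were false. These counts were drawn from the fitted spread of each gene, without a library ID series effect or outlying libraries. The check therefore does not cover those features of the data. GENCODE M21 held 48058 of 48440 gene IDs. Of 102 named genes, 25 share exon bases with another gene, 19 on the opposite strand only. Among the tested genes, 4 symbols have several IDs, of which the one with most counts was used. Reads of near-identical families (Sprr, Lce, Krt6, Stfa) are uncertain. Results for some genes are not reported here.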

Additional observations from a re-analysis of the deposited data

Results flagged for a closer look

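The PMA effect on Teddm3 in HFD minus that in ND was -2.02 on the log2 scale, a difference between diets that passed the test of the interaction.

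In 16 of 364 groups of 4 libraries, 1 library stood far from the other 3 for a named gene. Chance gives about 1 in 20. In ND_cont, Krt5 (3455.91 CPM), Eln (234.91 CPM) and Homer2 (84.39 CPM) were high in library 3, and Elovl1 (394.89 CPM) was low in library 4. In HFD_cont, Fabp5 (260.71 CPM) and Slpi (16.56 CPM) were high in library 1. In ND_PMA, Bhlhe40 (227.2 CPM), Mmp2 (610.39 CPM) and the hair gene Krtap11-1 (4.5 CPM) were high in library 2, Cpa3 (58.31 CPM) was high in library 1, and Sprr1a (297.55 CPM) was low in library 4. In HFD_PMA, the hair genes Krt32 (46.99 CPM) and Krtap11-1 (45.06 CPM) were high and Acadl (97.05 CPM) low in library 1, Cd209a (53.15 CPM) was high in library 3, and Osmr (62.06 CPM) was low in library 4.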

How the results depend on the processing

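At this depth and with 4 libraries a group, 18.2% of simulated 2-fold interactions were recovered. For the interaction, 22 genes were called by DESeq2, 2 with no or a stricter low-count filter, 2 with the replicate block, 2 with the library ID series as a covariate, 0 without the 4 libraries of high hair gene level (400 above and 317 below 0 at an unadjusted p below 0.05; the lone HFD_cont library is assumed to vary like the other groups), and 1 to 4 over libraries left out, with 4 without ND_cont replicate 2 and 2 without ND_cont replicate 4, ND_PMA replicate 1 or HFD_PMA replicate 2. Teddm3 was at -1.68 without the 4 libraries. For PMA in ND, 453 genes were called with the series covariate. For PMA in HFD, 156 were called without the 4 libraries and 1205 to 2469 over libraries left out (1205 without HFD_PMA replicate 2, 1396 without HFD_cont replicate 3). For diet without PMA, DESeq2 called 1149, the series covariate 179, the hair covariate 457 and the fit without the 4 libraries 22, with 336 to 889 over libraries left out. For diet with PMA, DESeq2 called 850 and the fit without the 4 libraries 99, with 116 to 436 over libraries left out (116 without HFD_PMA replicate 2). The cause of these changes was not tested. Leaving out libraries also means fewer samples. Of the interactions of 102 named genes over all alternatives, 2704 of 2747 values kept their sign and 43 did not, 22 passed the threshold that they missed before, and 1 call was lost (Teddm3). No called value changed sign. Of the list medians, 1025 of 1134 kept their sign and 109 did not. Many named genes were picked for a small p in these libraries, and the alternatives reuse the same libraries. Kept signs are therefore no independent support. Replicate numbers were not treated as pairs in the main fit. Of 24 same-number pairs, 2 had r over 0.1 (-0.07 to 0.20), and 15 of 48 comparisons were best with their own number. With 4 libraries a group these values cannot exclude a pairing.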

Other observations

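Genes of protein production included many that PMA raised in both diets. Of all genes, PMA raised 8.96% in ND and 7.34% in HFD and lowered 3.99% and 4.6%. Intervals lay within 2-fold of multiplied effects for 66.4% of genes with a mean of at least 5 CPM. Interactions were below 0 for 55.1% of all genes. PMA raised 13 of 20 ribosome biogenesis genes in ND and 11 in HFD, 17 of 20 interactions were below 0, the median was -0.24 and 19 intervals lay within 2-fold of multiplied effects. Of 18 ER chaperone and unfolded protein response genes, PMA raised 13 in ND and 11 in HFD, with a median of -0.20 and 15 intervals within 2-fold. Calr, the ER chaperone calreticulin, was at 90.7, 94.3, 111 and 99.3 CPM in the ND_cont libraries, 156, 157, 142 and 124 in HFD_cont, 284, 295, 305 and 287 in ND_PMA and 312, 363, 298 and 271 in HFD_PMA, with an interaction of -0.46 ± 0.16 (SE, 95% interval -0.79 to -0.14). PMA lowered 11 of 15 adipocyte genes in ND and 8 in HFD, with a median interaction of 0.09 and 9 intervals within 2-fold. Cidec, a lipid droplet protein of fat cells, was at 137, 118, 166 and 115 CPM in the ND_cont libraries, 69.4, 115, 71.6 and 79.4 in HFD_cont, 70.6, 92.1, 61.8 and 70.3 in ND_PMA and 58.3, 48.3, 58.3 and 65.7 in HFD_PMA, with 0.32 ± 0.24 (SE, 95% interval -0.19 to 0.82). Summed adipocyte marker levels were 1150.1 to 1555 CPM in ND_cont, 899 to 1238 CPM in HFD_cont, 680.1 to 909 CPM in ND_PMA and 502 to 701 CPM in HFD_PMA, and their part in other genes was not tested.

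Outside the lists and the naming rule, the genes with the next smallest p after Klk6 were also picked after their values were seen. Cwh43, which takes part in GPI anchor remodelling, was at 33.4, 33.5, 30.4 and 21.8 CPM in the ND_cont libraries, 59.2, 57.8, 51.3 and 52.6 in HFD_cont, 88.3, 105, 139.9 and 131 in ND_PMA and 99.7, 80.8, 96.6 and 93.9 in HFD_PMA. Levels in ND_PMA and HFD_PMA overlapped. Multiplied effects gave an expected 214 CPM against 92.7 CPM observed, with an interaction of -1.21 ± 0.22 (SE, 95% interval -1.67 to -0.75) and an adjusted p of 0.0969 by edgeR. Atp12a, a proton and potassium pump, was at 33.3, 45.2, 28.2 and 26.9 CPM in the ND_cont libraries, 72.5, 102, 92.9 and 94.2 in HFD_cont, 114, 172, 155 and 145 in ND_PMA and 194, 157, 174 and 164 in HFD_PMA, with -1.20 ± 0.23 (SE, 95% interval -1.67 to -0.73) and an adjusted p of 0.104 by edgeR. Tdh, Hsd17b14, Aldh3b3 and Serpina9 had interactions of -2.02, -1.07, -1.36 and -1.85, Homer2 of -0.68 and Atp2c2 of 1.06. Atp12a, Tdh and Homer2 share exon bases with a gene on the other strand, and Serpina9 with one on its own strand. Without the 4 libraries of high hair gene level Serpina9 was at -0.65.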
